A study of Mus musculus with 12 samples.

Results

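The 10 genes of MHC class II presentation (Ciita, Cd74, H2-Aa, H2-Ab1, H2-Eb1, H2-DMa, H2-DMb1, H2-DMb2, H2-Oa and H2-Ob) were taken by gene symbol from a table of 45777 mouse genes, and all 10 were found. RNA sequencing had been done on 12 samples of splenic CD4+ T cells from wild type C57BL/6 mice aged 7 weeks, in 4 groups of 3. All 4 groups carried no transgene and were stimulated with anti-CD3 at 0.5 µg/ml for 3 days. The Control group received neither drug, and the other groups received metformin, FK506 (tacrolimus, the calcineurin inhibitor) or both drugs together, called Metformin+FK506 here. The cells had been purified with magnetic beads coated with antibody to CD4, the drug doses of these cultures were not given in the sources used here, and the study's methods also list anti-CD28, which the sample labels do not, and give another age range for its mice. The labels do not say whether the 3 samples of a group came from separate mice or cultures, so the p-values below measure the spread between these samples, which may be technical.

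MHC class II molecules are pairs of an alpha and a beta chain that show peptides from endocytosed proteins to CD4+ T cells. Ciita is the transactivator that switches class II genes on at promoters which share an X box and a Y box. Cd74, the invariant chain, escorts new class II pairs to the lysosome, H2-DM exchanges its remnant for antigen peptides, and H2-O restrains H2-DM. In mice the genes of the classical chains, Cd74 and H2-DM are constitutive in B cells and dendritic cells, are induced in macrophages by interferon-gamma, and are low in T cells of this species.

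Of the 10 genes, 8 lay in a 224.296 kb stretch of chromosome 17, from 34092379 to 34316674 on build GRCm38.p6. In order these were H2-Oa (34092379 to 34095234), H2-DMa (34119693 to 34139101), H2-DMb2 (34143229 to 34151553), H2-DMb1 (34153191 to 34160229), H2-Ob (34238905 to 34245908), H2-Ab1 (34263227 to 34269418), H2-Aa (34282744 to 34287823, on the minus strand) and H2-Eb1 (34305867 to 34316674). Promoter windows of 300 bases (250 before to 50 after the start site, from RefSeq on GRCm38.p6) were on hand for 7 of the 10 genes, in 8 windows. Ciita, Cd74 and H2-Ab1 had no entry.

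The promoter stretches below are shown for the letters that some of these genes share at the X and Y box positions. Each runs 5′ to 3′ on the strand of its gene over 120 bases, from 130 to 11 bases before the start site. Capitals mark ATTGG, the core of the Y box, and AACNNATG, a word found here in the X box position, where N is any base. The first 4 hold both words.
H2-DMb2 (chr17:34145119-34145238, plus strand): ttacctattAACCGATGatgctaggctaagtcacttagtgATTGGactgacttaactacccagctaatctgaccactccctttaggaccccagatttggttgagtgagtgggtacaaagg
H2-DMb1 (chr17:34153061-34153180, plus strand): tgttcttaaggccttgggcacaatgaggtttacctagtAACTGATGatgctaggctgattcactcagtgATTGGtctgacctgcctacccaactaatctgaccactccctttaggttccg
H2-Ob (chr17:34238775-34238894, plus strand): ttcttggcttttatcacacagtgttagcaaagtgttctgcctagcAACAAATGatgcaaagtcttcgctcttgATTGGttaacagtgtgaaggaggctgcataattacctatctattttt
H2-Eb1 (chr17:34305737-34305856, plus strand): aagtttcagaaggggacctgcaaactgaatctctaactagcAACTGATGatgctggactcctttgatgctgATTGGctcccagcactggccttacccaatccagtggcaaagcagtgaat
H2-Aa (chr17:34287834-34287953, minus strand): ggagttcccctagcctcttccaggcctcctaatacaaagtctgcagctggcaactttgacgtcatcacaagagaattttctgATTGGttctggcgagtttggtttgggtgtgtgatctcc
H2-Oa (chr17:34092249-34092368, plus strand): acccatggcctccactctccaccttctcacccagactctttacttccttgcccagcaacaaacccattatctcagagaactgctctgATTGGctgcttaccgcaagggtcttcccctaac

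In H2-DMb1 and H2-DMb2 the words started 31 bases apart, in H2-Eb1 30 and in H2-Ob 28, with AACNNATG upstream each time. H2-Aa and H2-Oa held ATTGG at a like position without the letters AACNNATG, and H2-DMa held ATTGG in 1 of its 2 windows and AACNNATG in neither. Over all 32851 promoter windows of the same length, read on both strands, 37.4% held ATTGG and 8.86% held AACNNATG. The 2 words in that order, with starts 20 to 40 bases apart, were found in 53 windows or 0.161%. The words do not overlap. They were chosen after the members' windows had been read, so the count is a description, and a match is a run of letters and not a measured binding site.

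Read counts summed to between 43402632 and 64290105 per sample. Levels are given as CPM (counts scaled to a common library size, with trimmed-mean or TMM factors), which compare a gene between samples, and as FPKM, the deposited value per length, which compares genes within a sample. All 12 T cell markers had over 3 counts in every sample. They summed to 5768 to 5809 CPM in Control, 5273 to 5407 with metformin, 4024 to 4147 with FK506 and 4230.3 to 4349.6 under both drugs, and with FK506 against Control 8 of the 12 fell and 4 rose, by a median of -0.47 on the log2 scale. Markers of other cells were present too, so the counts do not show that the samples held T cells only. All 10 B cell markers had over 3 counts in every sample, and their summed level was 165 to 183 CPM in Control samples, 229.9 to 266 in metformin samples, 1875 to 1922 in FK506 samples and 921 to 968 under both drugs. The 10 macrophage and monocyte markers summed to 6.42 to 6.65 CPM in Control and 12.1 to 13.8 with metformin, where C1qa, C1qc and Fcgr1 were at 0 counts, and to 1600.1 to 1686 with FK506 and 1181 to 1311 with both. The 8 dendritic cell markers summed to 476 to 517, 744 to 803, 1230.2 to 1236 and 704 to 747 CPM in the same order, with Xcr1, Clec9a and Cd209a at 0 counts in Control and metformin samples. Only 3 of these 8 had over 3 counts in every Control sample, and 3 in every metformin sample. Against metformin alone, 3 of the 4 dendritic markers tested rose with both drugs and 1 fell, so the sum does not give the direction of most of them. These lists moved with the results below, and their part in them was not tested. In bulk RNA, fewer cells of a type and less RNA per cell cannot be told apart.

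FK506 raised every gene of the set. All 10 rose against Control, by log2 fold changes of 1.05 (H2-DMa) to 4.44 (H2-Aa), with a median of 3.38 beside a median of 0.02 over the 15197 genes tested. Of those genes, 41.3% were called higher in the same comparison and 39.6% lower (edgeR's quasi-likelihood test, Benjamini-Hochberg adjusted p under 0.05). In 84.5% of them the FK506 and Control samples did not overlap in CPM. The share of all reads taken by the 10 genes was 0.0427% ± 0.0017 in the Control samples and 0.620% ± 0.015 in the FK506 samples (SD, n = 3 each). Without TMM factors the median of all genes moved to 0.25 and the called genes that were higher went from 51.1% to 62.1%, and all 10 genes stayed higher.

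Ciita, the regulator at the top of the set, lies outside the class II region (chromosome 16, 10480014 to 10531064). It stood at 12.5, 15.1 and 14.5 CPM in the 3 Control samples. With FK506 it stood at 259, 284 and 265 CPM. The groups did not overlap, and the log2 fold change was 4.26 ± 0.08 (SE, adjusted p = 2.95e-17 with edgeR), the second largest of the set after H2-Aa. By FPKM, Ciita was the lowest of the 10 genes in Control at 1.46 ± 0.12 (SD, n = 3) and stood at place 8 with FK506, at 37.5 ± 2.8 (SD, n = 3).

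Cd74, the invariant chain, lies on chromosome 18 (60803849 to 60812652) and was the most abundant transcript of the set in all 4 groups. Its 3 Control samples held 148, 177 and 162 CPM and its FK506 samples 2905, 2848 and 2822 CPM. Every FK506 sample was far above every Control sample, with a log2 fold change of 4.14 ± 0.06 (SE, adjusted p = 4.52e-18 with edgeR). Cd74 made up 34.9% of the counts of the 10 genes in Control and 49.4% with FK506, as means of 3 samples.

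Among the genes of the classical chains, H2-Aa and H2-Eb1 rose more than H2-Ab1. H2-Aa, which encodes the I-A alpha chain, went from 35.6, 37.2 and 36.5 CPM in Control to 832, 780 and 760 CPM with FK506. H2-Ab1, the I-A beta chain that pairs with it, went from 114, 114 and 113 CPM to 645, 637 and 607 CPM. By FPKM as well, H2-Ab1 was the higher of the pair in Control and the lower with FK506 (81.1 against 27.5 and 522 against 693), and the log2 fold changes were 4.44 ± 0.06 for H2-Aa (SE, adjusted p = 1.14e-18 with edgeR) and 2.47 ± 0.04 for H2-Ab1 (SE, adjusted p = 3.43e-18 with edgeR). H2-Eb1, the I-E beta chain, rose by 4.02 ± 0.06 on the log2 scale (SE, adjusted p = 1.68e-18 with edgeR), from 41.0 to 43.4 CPM in Control to 649.9 to 716 CPM. C57BL/6 mice lack a working I-E alpha chain, and the row of that locus, H2-Ea-ps, was at 0 counts in all 12 samples, so it was not tested.

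Among the peptide exchange genes, H2-DMa rose the least, and the H2-DM beta chain genes rose by a little more than H2-Ab1. H2-DMa, the alpha chain of H2-DM, stood at 38.6, 42.3 and 36.8 CPM in Control and 82.7, 82.7 and 78.3 CPM with FK506, a log2 fold change of 1.05 ± 0.09 (SE, adjusted p = 1.1e-08 with edgeR) that was the smallest of the set. The beta chain genes H2-DMb1 and H2-DMb2 rose by 2.75 ± 0.07 and 2.74 ± 0.06 (SE, adjusted p = 1.42e-15 and 3.66e-16 with edgeR). H2-DMb1 went from 7.82 to 8.66 CPM in Control to 54.9 to 55.6 CPM with FK506, and H2-DMb2 from 20.7 to 23.1 CPM to 139 to 151 CPM. These 2 genes are close copies: of the 1629 stretches of 50 bases in H2-DMb1 transcripts, 369 or 22.7% also occur in those of H2-DMb2, so reads could be split between them and their separate values are uncertain. No other pair of the set shared such a stretch.

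The inhibitor chains diverged from each other. H2-Ob, the beta chain of H2-O, stood at 12.4, 13.4 and 14.6 CPM in Control and at 236, 230 and 224 CPM with FK506, a log2 fold change of 4.09 ± 0.06 (SE, adjusted p = 3.02e-18 with edgeR). H2-Oa, its alpha chain partner, stood at 12.9 ± 0.8 CPM in Control (SD, n = 3, highest sample 13.5) and at 38.7, 39.1 and 39.7 CPM with FK506, a log2 fold change of 1.60 ± 0.08 (SE, adjusted p = 1.02e-11 with edgeR). Per length, H2-Ob was below H2-Oa in Control (means of 4.30 and 10.5 FPKM) and above it with FK506 (85.3 and 36.9 FPKM), without overlap in either group.

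**Figure D1:**
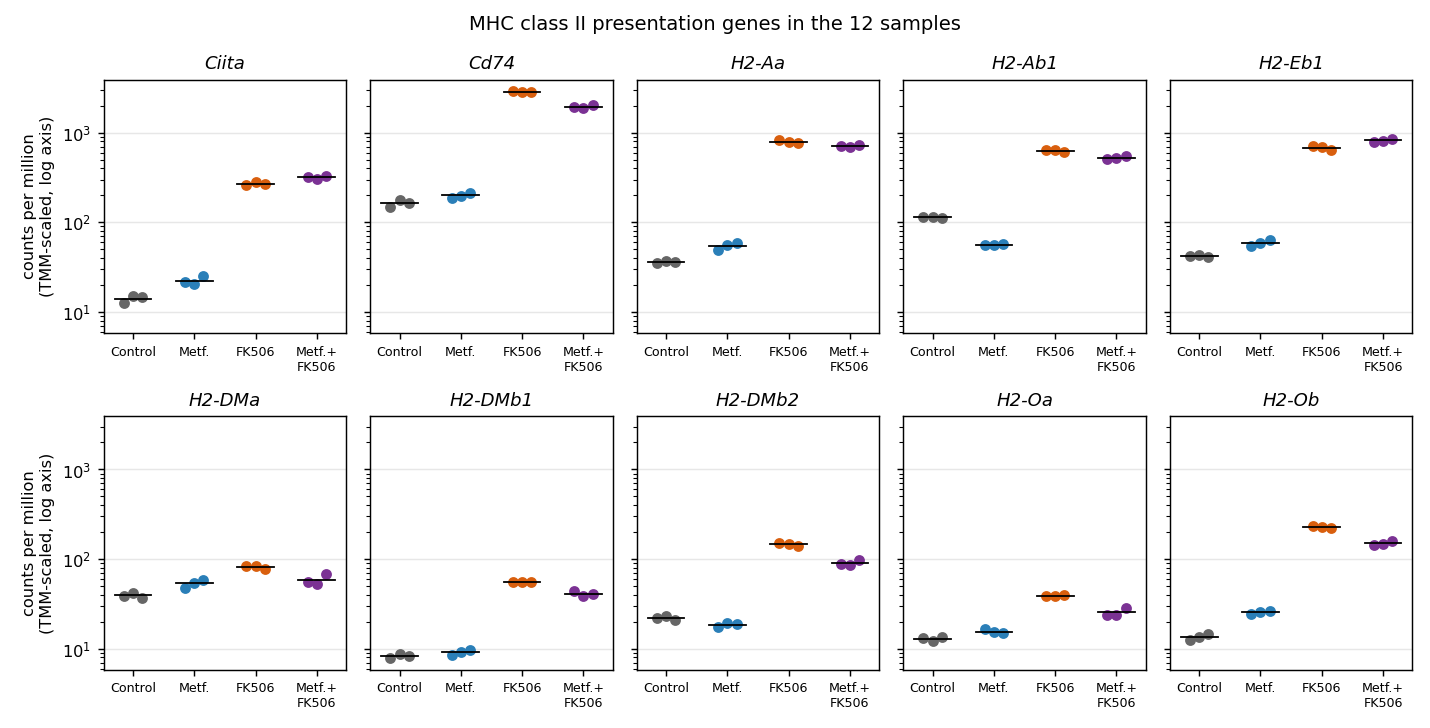
Level of each of the 10 class II genes in every sample, in TMM-scaled CPM on a log axis, with 3 points per group and a line at the group mean. All FK506 and Metformin+FK506 points lie above all Control points for each gene, and H2-Ab1 is the gene whose metformin points (55.2 to 57.7) lie farthest below Control (113 to 114). Of all genes tested, 84.5% did not overlap between FK506 and Control samples, and 82.3% between Metformin+FK506 and Control samples.

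The same 10 genes were higher with both drugs than in Control. The log2 fold changes ran from 0.58 (H2-DMa) to 4.50 (Ciita), with a median of 2.90 beside 0.03 over all genes tested, of which 42.1% were called higher. Ciita, at 325, 303 and 330 CPM, and H2-Eb1, at 797, 819 and 849 CPM, had their highest levels of the 4 groups with both drugs. Against metformin alone, 9 of 10 rose with both drugs, where 40.3% of all genes were called higher. The remaining gene was H2-DMa, with 55.0, 52.7 and 68.8 CPM against 48.0, 54.5 and 58.0 CPM with metformin (log2 difference of 0.13 ± 0.09 SE, adjusted p = 0.171 with edgeR). These groups overlapped. Without TMM factors the called genes that were higher went from 51.6% to 61.8% against Control and from 51.6% to 62.3% against metformin, and the H2-DMa difference from metformin became 0.32 and passed the test. The comparisons with Control share the same 3 Control samples.

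**Figure D2:**
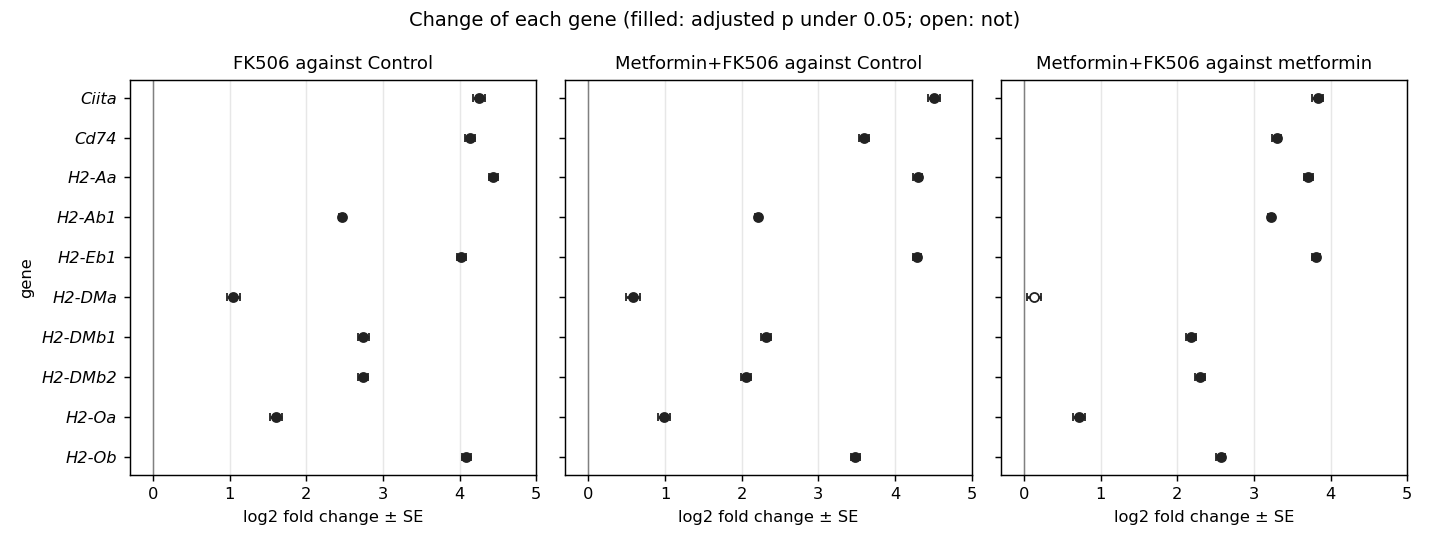
Log2 fold change of each gene with its standard error (horizontal bars) in 3 comparisons of a group with FK506 against a group without it. Points are filled where the adjusted p was under 0.05. The middle panel, Metformin+FK506 against Control, differs by metformin as well. H2-DMa has the smallest value in each panel (1.05, 0.58 and 0.13) and is the one open point.

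FPKM values were used to rank the genes within a group. In Control the order was Cd74 (111 FPKM), H2-Ab1 (81.1), H2-Aa (27.5), H2-Eb1 (21.5), H2-DMa (13.0), H2-DMb2 (12.9), H2-Oa (10.5), H2-DMb1 (5.46), H2-Ob (4.30) and Ciita (1.46). Only H2-DMa and H2-DMb2 among these neighbours had overlapping samples. With FK506 the order was Cd74 (2235), H2-Aa (693), H2-Ab1 (522), H2-Eb1 (405), H2-DMb2 (102), H2-Ob (85.3), H2-DMb1 (42.6), Ciita (37.5), H2-Oa (36.9) and H2-DMa (33.0). Ciita, H2-Oa and H2-DMa overlapped with one another there, and H2-Ob had moved from place 9 to place 6. With both drugs H2-Eb1 (479) passed H2-Ab1 (430), and these 2 did not overlap.

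The FPKM of H2-DMa was unstable. Its counts and FPKM together imply a transcript length of 1893 to 2395 bases in 9 samples and of 6045 to 7167 bases in the others, which were Control replicate 3, FK506 replicate 1 and Metformin+FK506 replicate 3. For Ciita the highest implied length was 1.25 times the lowest, at 8707 to 9045 bases in Control and 7438 to 7996 bases with FK506, so its FPKM levels and places carry that difference. For each of the other 8 genes the highest was 1.04 times the lowest. H2-DMa was therefore read from its counts, and a test on its FPKM lost the calls that its counts gave in 4 comparisons (metformin against Control, Metformin+FK506 against Control and against FK506, and the interaction).

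Metformin alone moved the genes less, and not all in 1 direction. Against Control, 7 rose, 2 fell and H2-DMb1 did not pass the test, where 28.6% of all genes were called higher and 27.4% lower. The median log2 fold change of the 10 was 0.37 beside 0.01 over all genes tested. H2-Ob rose the most, from 12.4 to 14.6 CPM in Control to 24.3, 25.6 and 26.5 CPM (log2 fold change of 0.92 ± 0.06 SE, adjusted p = 3.27e-09 with edgeR). Ciita rose to 21.4, 20.5 and 25.3 CPM, a log2 fold change of 0.67 ± 0.08 (SE, adjusted p = 2.87e-06 with edgeR), and H2-Aa to 49.2, 56.4 and 58.4 CPM, a log2 fold change of 0.59 ± 0.06 (SE, adjusted p = 2.1e-07 with edgeR). In each of these 3 genes, every metformin sample was above every Control sample. The samples of these groups did not overlap in 66.4% of all genes tested.

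Smaller rises were measured for the others. H2-Eb1 rose by 0.48 on the log2 scale, H2-DMa by 0.45, Cd74 by 0.30 and H2-Oa by 0.27 (adjusted p = 1.46e-06, 0.000455, 0.0004 and 0.0105 with edgeR). The H2-Oa call was lost without Control replicate 2 (adjusted p = 0.0563 with edgeR). H2-DMb1, at 8.42 to 9.62 CPM against 7.82 to 8.66 CPM, had a log2 fold change of 0.14 ± 0.07 (SE, adjusted p = 0.123 with edgeR), and it passed with upper-quartile scaling (0.18, adjusted p = 0.0382 with edgeR) and in limma on log2(FPKM + 0.1) (adjusted p = 0.0445). With metformin the B cell markers moved as well: 8 of 10 rose and 1 fell, with a median log2 fold change of 0.51.

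H2-Ab1 went the other way. It fell from 114, 114 and 113 CPM in Control to 55.2, 56.4 and 57.7 CPM with metformin, a fall of 2.01-fold (log2 fold change of -1.01 ± 0.04 SE, adjusted p = 1.52e-12 with edgeR). H2-DMb2 also fell, from 21.8, 23.1 and 20.7 CPM to 17.5, 19.1 and 18.8 CPM (log2 fold change of -0.24 ± 0.07 SE, adjusted p = 0.00473 with edgeR). The groups did not overlap in either gene, where 66.4% of all genes did not, and both falls passed the test under every alternative processing tried.

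The 2 chains of I-A were therefore compared within each sample. The FPKM of H2-Ab1 was 3.03, 2.91 and 2.92 times that of H2-Aa in the Control samples. It was 1.06, 0.946 and 0.935 times with metformin, 0.733, 0.772 and 0.756 times with FK506, and 0.680, 0.708 and 0.702 times with both drugs. The Control samples stood apart from all the others. The difference from Control was -1.59 on the log2 scale with metformin and -1.97 with FK506, each with p = 0.1 in a two-sided exact permutation test, the smallest p that 3 samples against 3 can give.

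Other ratios behaved differently. The FPKM of Cd74 was 4.03 ± 0.27 times that of H2-Aa in Control samples, 3.31 ± 0.16 in metformin samples, 3.23 ± 0.10 in FK506 samples and 2.46 ± 0.05 under both drugs (SD, n = 3 each), and the samples with both drugs were below all others (exact permutation p = 0.1 against each group it was tested with). The ratio of H2-Eb1 to H2-Aa, chosen for description after the values were seen, was 0.783 ± 0.020 in Control, 0.776 ± 0.019 with both drugs, 0.725 ± 0.016 with metformin and 0.585 ± 0.009 with FK506 (SD, n = 3 each). Control and Metformin+FK506 samples overlapped in that ratio, the metformin samples lay below both, and the FK506 samples were lowest. The ratio of H2-Ob to H2-Oa, chosen in the same way, was 0.412 ± 0.036 in Control samples, 0.648 ± 0.062 in metformin samples, 2.31 ± 0.09 in FK506 samples and 2.33 ± 0.12 under both drugs (SD, n = 3 each). For H2-Ob and H2-Oa, both FK506 groups thus lay far above the others and overlapped each other.

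The inhibitor H2-O and its target H2-DM were compared chain by chain, and the direction depended on the chains. By FPKM the ratio of H2-Ob to H2-DMa was 0.241, 0.238 and 0.987 in Control and 5.96, 1.84 and 2.19 with FK506, and by counts it was 0.321, 0.317 and 0.398 in Control and 2.85, 2.78 and 2.86 with FK506. The groups did not overlap on either scale (exact permutation p = 0.1, log2 difference of 2.91 by FPKM and 3.04 by counts). By FPKM the difference ran from 2.39 to 3.59 when 1 sample was left out, with 3.59 without Control replicate 3. This pair joins the H2-O chain that rose most to the H2-DM chain that rose least. With the same test, in pairs added after the values were seen, the FPKM ratios of H2-Ob to H2-DMb1 and to H2-DMb2 were also higher with FK506, by 1.35 and 1.33 on the log2 scale. The ratios of H2-Oa to H2-DMb1 and to H2-DMb2 were lower, by -1.15 and -1.16, again without overlap (exact permutation p = 0.1 each), and H2-Oa to H2-DMa overlapped by FPKM (0.42, exact permutation p = 0.5). By counts, the scale on which H2-DMa was stable, H2-Oa to H2-DMa was 0.340, 0.285 and 0.368 in Control and 0.468, 0.473 and 0.506 with FK506, higher without overlap (log2 difference of 0.55, exact permutation p = 0.1). With metformin the FPKM ratio of H2-Ob to H2-DMa was 0.386, 0.353 and 0.343, inside the Control range, while the count ratio was 0.506, 0.470 and 0.458, above it. The wide FPKM ratios come from the same samples in which the implied length of H2-DMa was long.

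**Figure D3:**
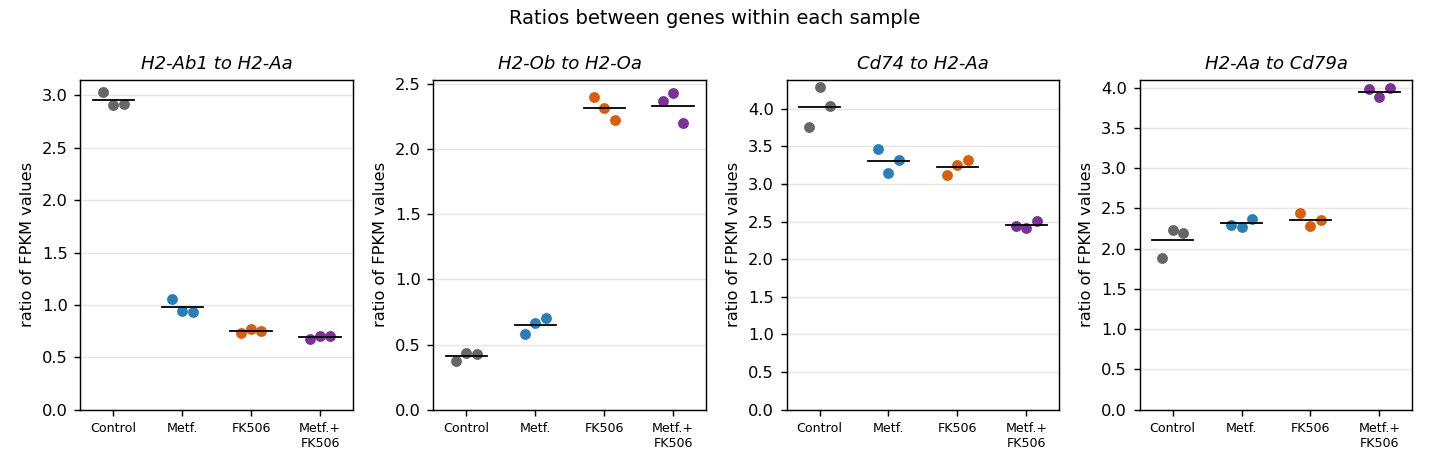
Ratio of FPKM values between 2 genes in every sample, with 3 points per group, a line at the group mean and axes from 0. H2-Ab1 to H2-Aa is near 3 in Control only (2.91 to 3.03), H2-Ob to H2-Oa is over 2 in both FK506 groups, and H2-Aa to Cd79a is highest with both drugs (3.88 to 3.99).

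Adding metformin to FK506 split the set. Against FK506 alone, 8 genes fell and 2 rose with both drugs, where 15.0% of all genes were called lower and 15.6% higher. The median log2 fold change of the 10 was -0.45 beside 0.00 over all genes tested. The largest fall was that of H2-DMb2, from 151, 149 and 139 CPM with FK506 to 88.0, 85.8 and 98.8 CPM (log2 fold change of -0.69 ± 0.06 SE, adjusted p = 1.37e-07 with edgeR). H2-Oa fell to 24.1, 23.8 and 28.7 CPM and H2-Ob to 145, 147 and 161 CPM, by -0.62 ± 0.08 and -0.61 ± 0.05 on the log2 scale (SE, adjusted p = 1.12e-05 and 1.59e-07 with edgeR). Both chains of H2-O thus fell by about the same factor, 1.54-fold and 1.52-fold.

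Cd74 fell from 2822 to 2905 CPM with FK506 to 1941, 1882 and 2056 CPM with both drugs, a 1.46-fold fall (log2 fold change of -0.54 ± 0.06 SE, adjusted p = 2.01e-06 with edgeR). H2-DMa and H2-DMb1 fell by 0.47 and 0.43 on the log2 scale and H2-Ab1 by 0.26 (adjusted p = 0.000591, 5.21e-05 and 3.25e-05 with edgeR). The fall of H2-Aa was the smallest, from 760 to 832 CPM to 698 to 734 CPM (-0.14 ± 0.05 SE, adjusted p = 0.0389 with edgeR). It was lost without FK506 replicate 1 (adjusted p = 0.144 with edgeR), without Metformin+FK506 replicate 1 or 2 (adjusted p = 0.0648 and 0.0781 with edgeR) and with FPKM + 0.1 in limma (adjusted p = 0.0533).

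The 2 genes that rose were Ciita and H2-Eb1. Ciita went from 259 to 284 CPM with FK506 to 303 to 330 CPM with both drugs (log2 fold change of 0.24 ± 0.06 SE, adjusted p = 0.00757 with edgeR), and H2-Eb1 from 649.9 to 716 CPM to 797 to 849 CPM (0.26 ± 0.05 SE, adjusted p = 0.000618 with edgeR). The samples did not overlap in either gene, where 39.8% of all genes did not. The Ciita call was lost in limma on log2(FPKM + 0.1) (adjusted p = 0.0875). H2-Eb2, a further E beta locus beside H2-Eb1, stood at 42.4 to 44.2 CPM with FK506 and 45.2 to 46.5 CPM with both drugs, a log2 fold change of 0.07 ± 0.09 (SE, adjusted p = 0.608 with edgeR).

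Markers of other cells moved in the same comparison. All 10 B cell markers fell, by a median of -0.995 on the log2 scale and a range of -1.55 to -0.62, while 3 of the 9 macrophage markers tested rose, 1 (Lyz2) fell and 5 did not pass. The 4 dendritic cell markers that could be tested all fell, by 0.53 to 0.81. Relative to the summed CPM of the B cell markers, each of the 10 class II genes was higher with both drugs than with FK506 without overlap, for example H2-Aa at 0.758 to 0.767 against 0.405 to 0.435. The B cell sum itself fell to 0.494 of its FK506 level, so a gene that did not change would also be higher over it. The share of all genes that were higher over this sum was not counted. Relative to the summed macrophage markers, Ciita, H2-Aa, H2-Ab1 and H2-Eb1 were higher without overlap (H2-Eb1 at 0.648 to 0.675 against 0.386 to 0.442), Cd74, H2-DMb2, H2-Oa and H2-Ob were lower without overlap (H2-Ob at 0.119 to 0.123 against 0.133 to 0.145), and H2-DMa and H2-DMb1 overlapped. These quotients were added after the values had been seen, and the part of any cell type in them was not tested. The quotient with the macrophage sum turned on Lyz2, which fell from 1038 to 1065 CPM with FK506 to 519.7 to 656 CPM with both drugs, while the other 9 markers summed to 559 to 620.3 and 654 to 661 CPM. Without Lyz2 in the sum, H2-Aa (1.06 to 1.12 with both drugs against 1.23 to 1.42) and H2-Ab1 (0.776 to 0.833 against 0.979 to 1.14) were lower without overlap, Ciita and H2-Eb1 overlapped, and the other 6 genes were lower without overlap. With each B cell marker on its own, Ciita, H2-Aa, H2-Ab1, H2-Eb1 and H2-DMb1 were higher for 10 of 10 markers, and the other genes for 7 to 9 of 10, with overlap for the rest. As all 10 markers fell, a gene that did not change would be higher over them too, and the share of all genes was not counted.

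Ratios of H2-Aa to single markers were compared as well. The FPKM of H2-Aa was 1.88, 2.23 and 2.19 times that of Cd79a, a chain of the B cell receptor complex, in Control. It was 2.32 ± 0.05 with metformin, 2.36 ± 0.08 with FK506 and 3.95 ± 0.06 under both drugs (SD, n = 3 each). The samples with both drugs lay above all others (exact permutation p = 0.1 against each group). Cd79a was among the B cell markers that fell when metformin was added to FK506. Relative to Lyz2, the macrophage lysozyme, H2-Aa stood at 0.752, 0.702 and 0.668 with FK506 and 1.29, 1.12 and 1.05 with both drugs, also without overlap (exact permutation p = 0.1). Over the other 9 macrophage markers, each on its own, H2-Aa by CPM was lower without overlap for 7 and overlapped for 2, so Lyz2 alone gave the higher ratio. In Control and metformin samples Lyz2 had too few counts (0 to 9) for a ratio.

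**Figure D4:**
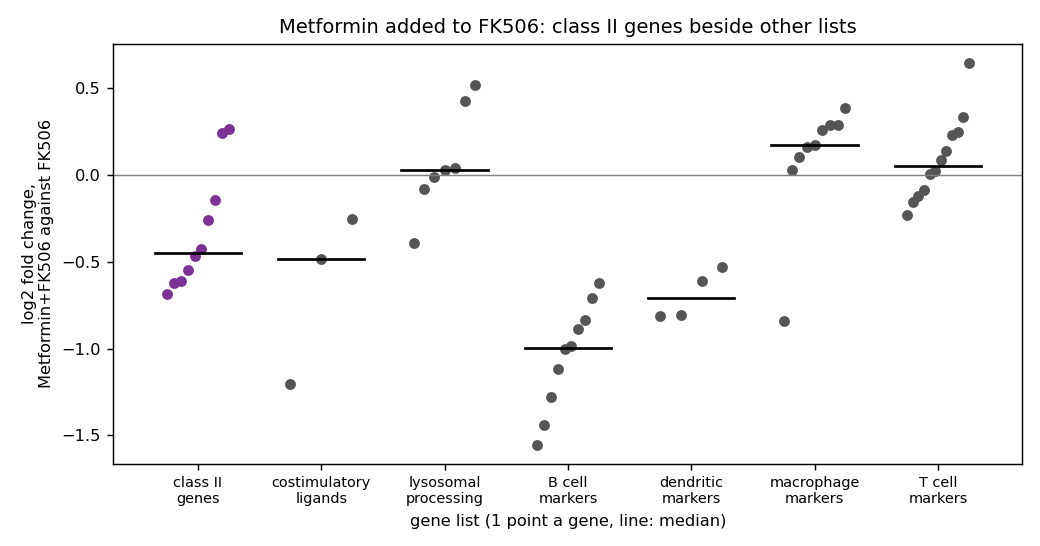
Log2 fold change of Metformin+FK506 against FK506 for each tested gene of the class II set and 6 other lists, with a line at each list's median. The class II median is -0.45, with Ciita and H2-Eb1 above 0. The other medians are -0.48 (costimulatory ligands), 0.03 (lysosomal processing), -0.995 (B cell markers), -0.71 (dendritic markers), 0.18 (macrophage markers) and 0.05 (T cell markers).

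In the main edgeR fit, the effect of metformin differed with and without FK506 for every gene. The interaction term passed the test for 10 of 10, of which 9 were negative and 1 positive, where 24.0% of all genes were called negative (lower) and 22.5% positive (higher). Cd74, H2-Aa, H2-DMa, H2-Oa and H2-Ob rose with metformin alone and fell when metformin was added to FK506, so 5 genes were called in opposite directions. The H2-Aa fall and the H2-Oa rise among them were lost without single samples, as given above, and the H2-Aa fall also with the replicate number as a block (adjusted p = 0.0609 with edgeR). The calls of H2-DMa were lost on FPKM, so Cd74 and H2-Ob were the 2 called in opposite directions under every alternative tried. H2-Ob had the largest term: metformin changed it by 0.92 on the log2 scale without FK506 and by -0.61 with it, a difference of -1.52 ± 0.08 (SE, adjusted p = 2.26e-10 with edgeR). H2-Ab1 was the positive term, with -1.01 without FK506 and -0.26 with it, a difference of 0.75 ± 0.05 (SE, adjusted p = 5.07e-09 with edgeR). For H2-Eb1 the term was -0.21 ± 0.07 (SE, adjusted p = 0.0255 with edgeR), and it was lost without any 1 of 5 samples (Control replicate 3, FK506 replicate 1, Metformin replicates 2 and 3, Metformin+FK506 replicate 1), with adjusted p up to 0.0834. The term of Ciita was lost in limma on log2(FPKM + 1) (adjusted p = 0.0621) and after quantile normalization (adjusted p = 0.265). That of H2-DMa was lost in limma on the FPKM scales (adjusted p = 0.0801 to 0.0881).

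**Figure D5:**
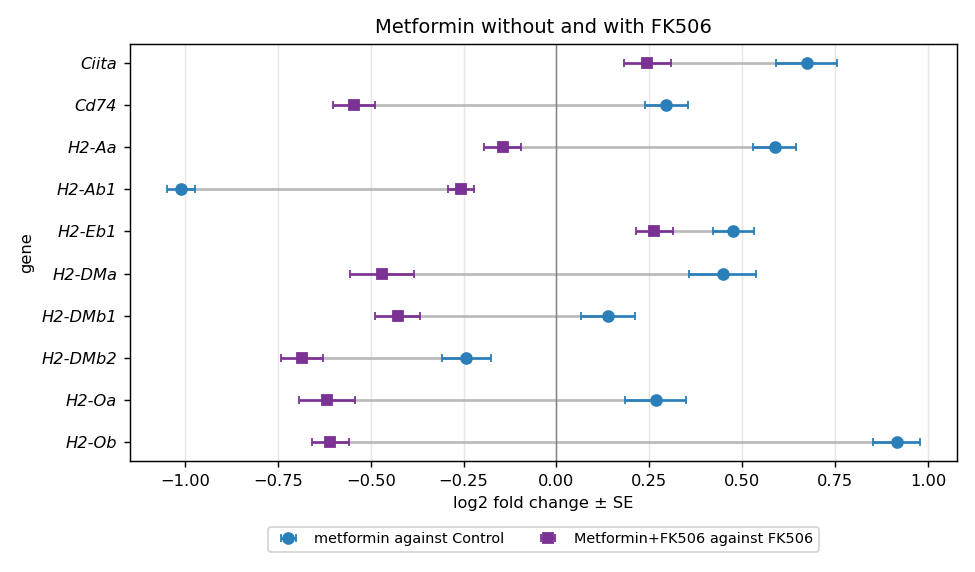
Log2 fold change with its standard error for metformin against Control (circles) and for Metformin+FK506 against FK506 (squares), 1 row per gene and a grey line between the pair. The squares lie to the left of the circles for 9 genes, and H2-Ab1 is the exception (-1.01 and -0.26).

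Relative to the summed B cell markers, Control and FK506 samples also differed gene by gene. Ciita stood at 0.0754 to 0.0841 of the summed B cell marker CPM in Control and 0.135 to 0.148 with FK506, and Cd74 at 0.896 to 0.965 and 1.48 to 1.52. H2-DMa was at 0.213 to 0.233 in Control and 0.0418 to 0.0432 with FK506, and H2-Oa at 0.0656 to 0.0793 and 0.0202 to 0.0211. Over this sum Ciita and Cd74 were higher with FK506, and H2-DMa and H2-Oa lower, with no overlap in any of these 4. H2-Aa, H2-Eb1 and H2-Ob were also higher without overlap. H2-Ab1 (0.623 to 0.690 in Control and 0.324 to 0.337 with FK506), H2-DMb1 and H2-DMb2 were also lower without overlap. The markers themselves rose unequally, so each was also used alone. Ciita was higher over 6 of the 10 markers and lower over 2 (Cr2 and Blk) without overlap, and Cd74 higher over 6 and lower over 3 (Ms4a1, Cr2 and Blk). Over Cd79a both genes overlapped between the groups. H2-DMa was lower over 10 of 10 markers and H2-Oa over 9 of 10, with overlap for Ebf1. H2-Ab1 was lower over 8 and higher over 1, and H2-DMb1 and H2-DMb2 were each lower over 7 and higher over 3. H2-Aa was higher over 7 and lower over 2, H2-Eb1 higher over 6 and lower over 4, and H2-Ob higher over 6 and lower over 3.

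The factors that assemble on class II promoters changed by less than Ciita did. Of 7 genes, 5 rose and 1 fell with FK506, where 41.3% of all genes were called higher and 39.6% lower, and their median log2 fold change was 0.58. Nfyb, a subunit of the complex that binds the Y box, fell by 1.08, whereas Rfxank and Rfx5, subunits of the X box complex, rose by 0.99 and 0.62 and the X box factor Creb1 by 0.87 (adjusted p = 2.51e-11, 8.86e-12, 1.5e-08 and 3.18e-12 with edgeR). Rfxap, also of the X box complex, did not pass the test (log2 fold change -0.17 ± 0.10 SE, adjusted p = 0.129 with edgeR). When metformin was added to FK506, 1 of the 7 rose, 1 fell and 5 did not pass, which is near the 15.6% and 15.0% of all genes called higher and lower.

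Interferon-gamma is a known inducer of Ciita, and 4 of 8 genes of that input rose while 4 fell with FK506, and 1 of these directions turned under 1 of 6 other scalings. These counts are near the shares of all genes (41.3% higher and 39.6% lower). Ifng itself fell from 14.7 to 15.6 CPM in Control to 2.95 to 4.38 CPM, a log2 fold change of -2.06 ± 0.14 (SE, adjusted p = 5.49e-10 with edgeR). The inhibitor Socs1 fell by 2.00, and the receptor chain Ifngr1 and the kinase Jak1 rose by 1.79 and 1.25. With metformin alone Ifng fell by 0.59 on the log2 scale (adjusted p = 0.00102 with edgeR), and when metformin was added to FK506 it rose by 0.67 ± 0.14 (SE, adjusted p = 0.00156 with edgeR). Ifng and Ciita moved in opposite directions with FK506 and with metformin alone, and in the same direction when metformin was added to FK506. The part of interferon-gamma in the level of Ciita was not tested.

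The lysosomal enzymes that prepare antigen and trim the invariant chain rose with FK506, 7 of 7 where 41.3% of all genes were called higher, and the median of the 7 was 2.52 on the log2 scale. Lgmn, asparagine endopeptidase, went from 6.32 to 6.75 CPM in Control to 161 to 165 CPM (4.65 ± 0.06 SE, adjusted p = 1.14e-18 with edgeR). Ctsd rose by 2.90, and Ctss, the cathepsin that cuts the last piece of Cd74, by 2.52. When metformin was added, Lgmn and Ctsl rose by 0.43 and 0.52, Ctss fell by 0.39 and 4 did not pass the test, where 15.6% of all genes were called higher and 15.0% lower. Ctss thus fell with Cd74, while Lgmn rose with Ciita and H2-Eb1.

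Genes that act on class II molecules at the surface were measured as well. All 3 of the ubiquitin ligases March1 and March8, which remove class II molecules, and Cd83, which opposes March1, rose with FK506, where 41.3% of all genes were called higher. March1 stood at 2, 0 and 4 counts in Control and at 2847, 2796 and 2072 counts with FK506. Cd83 rose by 2.09 and fell by 1.00 when metformin was added. Of the 3 genes, 2 fell in that comparison and 1 rose, by 0.50, where 15.0% of all genes were called lower and 15.6% higher. The costimulatory ligands Cd40, Cd80 and Cd86 rose with FK506 by 3.35, 2.78 and 2.35, and with metformin added they fell by 0.25, 1.20 and 0.48. Cd80 with both drugs, at 51.8 to 60.0 CPM, was still above Control at 18.1 to 18.7 CPM.

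Genes of class I presentation were counted in the same comparison. Of 9 genes, 1 rose and 5 fell with FK506, where 41.3% of all genes were called higher and 39.6% lower, and their median log2 fold change was -0.16. The immunoproteasome subunits Psmb8 and Psmb9 and the peptide transporter Tap1 fell by 1.08, 0.99 and 1.08, and the peptide loading factor Tapbp rose by 0.55, all with the same sign under the 6 other scalings. H2-K1 and Tap2, lower by 0.17 and 0.16, changed sign under 4 of the 6, and B2m and Nlrc5 did not pass the test. On the T cell side, Lag3, a receptor for class II, fell by 2.77 and Cd4 rose by 0.29, and Mif, a ligand of Cd74, fell by 2.89. Cxcr4, a co-receptor in Cd74 signalling, rose by 1.16.

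The genes with the profile nearest to the mean of H2-Aa, H2-Ab1, H2-Eb1 and Cd74 were listed by the distance between centred log2(FPKM + 1) values over the 12 samples. The nearest 10, at distances of 0.40 to 0.55, included Pxdc1, Fth1, Plau, Clec4d, Msr1, Fabp4, Slamf8, Csf1r and Cfb. Of these 10, 9 were below 1 FPKM in Control, so that the added 1 sets much of their change, and the choice did not hold on other scales: 1 of the 10 was among the nearest on log2(FPKM + 0.1) and 2 on log2(CPM + 1). Among the 6 class II genes outside that mean, Ciita was nearest at 0.81 (1.36 on log2(FPKM + 0.1) and 1.08 on log2(CPM + 1)) and H2-DMa farthest at 6.11, a distance that includes the unstable FPKM of H2-DMa and was 5.30 by CPM. Fth1, a ferritin chain, had mean FPKM values of 199 (Control), 220.4 (metformin), 2632 (FK506) and 2793 (both drugs). Csf1r, the receptor for macrophage colony stimulating factor, is on the macrophage marker list and stood at 0 to 2 counts in Control.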

How the data were processed

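CD4+ T cells from mouse spleen were sequenced as polyA RNA in 12 samples. Per the labels the authors used bcl2fastq 2.20.0, Trimmomatic, HISAT2 2.1.0 on mm10 and StringTie 2.1.3b. They deposited 1 table with a read count and an FPKM per gene and sample, and 12 further columns of TPM that were not used here. How StringTie lengths enter the FPKM is not given in the sources used here.

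The deposited counts of 15197 genes with FPKM of at least 0.5 in 3 or more samples were fitted in edgeR 4.0.16 (quasi-likelihood, TMM, 4 groups in 1 fit, 8 residual degrees of freedom) with Benjamini-Hochberg adjusted p under 0.05, after tests on simulated data. Alternatives used limma 3.58.1 on log2(FPKM + 1) and log2(FPKM + 0.1), and DESeq2 1.42.0. A value is a TMM-scaled CPM unless called FPKM. Ratios of FPKM within a sample were compared by two-sided exact permutation tests over samples (scipy), on the log2 scale. Named genes were the 10 members, the 2 to 4 genes of each pathway list with the largest called change with FK506, and the 10 nearest profiles, of which 9 are reported here. Genes outside these rules (Ctsl, H2-K1, Tap2, B2m, Nlrc5, Rfxap and the markers) were named after their values were seen. The members, lists and tests were chosen with earlier results of these data known.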

Additional observations from a re-analysis of the deposited data

Results flagged for a closer look

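For each of the 10 class II genes the effect of metformin with FK506 differed from its effect without FK506, by the interaction term of the edgeR fit (adjusted p under 0.05). On the log2 scale the effect with FK506 minus that without it was -1.52 for H2-Ob, -0.92 for H2-DMa, -0.89 for H2-Oa, -0.84 for Cd74, -0.73 for H2-Aa, -0.57 for H2-DMb1, -0.44 for H2-DMb2, -0.43 for Ciita and -0.21 for H2-Eb1. It was 0.75 for H2-Ab1. The terms of Ciita, H2-DMa and H2-Eb1 lost their call under some alternatives, as given above. Of the B cell markers, 9 of 10 had a negative term past the threshold in the same fit, with a median of -1.60 over the 10, and the part of those markers in the terms of the class II genes was not tested.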

How the results depend on the processing

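Of the recomputed log2 fold changes of single class II genes, 977 kept their direction and their side of the threshold, 26 lost a call, 4 gained one and 3 changed sign. The number of class II genes called with FK506 against Control was 10 under all 16 alternatives, and 7 to 10 were called in the other comparisons. Leaving out 1 sample gave 10 genes with FK506 against Control and 10 with Metformin+FK506 against Control, 9 to 10 against FK506, 9 to 10 against metformin, 9 to 10 for the interaction and 8 to 9 with metformin against Control. The 3 changes of sign were those of H2-DMa in Metformin+FK506 against metformin, at -0.24 in limma on log2(FPKM + 1), -0.26 with FPKM + 0.1 and -0.37 after quantile normalization. The log2 ratio of H2-Ob to H2-DMa by FPKM was -0.09 for metformin against Control and became 0.48 with counts, with a range of -0.44 to 0.59 when 1 sample was left out. For Metformin+FK506 against FK506 it was -0.02, with a range of -0.42 to 0.51. The FPKM values of H2-DMa with a long implied length lie behind both ranges. With other chains in its place the FK506 difference of 2.91 became -1.15 (H2-Oa to H2-DMb1) and -1.16 (H2-Oa to H2-DMb2). These chains, and the next alternatives, were chosen after seeing the data. Without Lyz2 in the macrophage sum, the log2 difference of Metformin+FK506 from FK506 went from 0.25 to -0.30 for H2-Aa and from 0.14 to -0.42 for H2-Ab1. With Cd79a in place of the B cell sum, the difference of FK506 from Control became -0.0028 for Ciita, -0.13 for Cd74, -0.25 for H2-Eb1 and -0.17 for H2-Ob. The interaction of Ciita was lost in limma on log2(FPKM + 1) (adjusted p = 0.0621) and after quantile normalization (adjusted p = 0.265).

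The replicate numbers did not pair the samples: over 18 pairs of samples with the same number, deviations from the group means correlated between -0.12 and 0.07, and 0 were over 0.1. With the replicate number as a block, 9 class II genes were called for Metformin+FK506 against FK506 in place of 10 (H2-Aa, adjusted p = 0.0609 with edgeR), and 4326 of all genes in place of 4660. Depth was not limiting for these genes, whose lowest count was 353 (H2-DMb1 in Control).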
